A study of Mus musculus with 6 samples.

Results

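Aldh18a1, Pycr1, Glul, Got1, Cth, Cbs, Bcat1 and Bcat2 encode enzymes that make or convert proline, glutamine, aspartate, cysteine and the branched-chain amino acids. These 8 genes were taken by symbol from a table of 46095 genes and compared between bone marrow-derived macrophages of Cd226-/- and of WT mice. Both groups were C57BL/6 mice of postnatal day 56. Cd226-/- mice lack the gene of CD226 (DNAM-1), an activating receptor of the immunoglobulin family, and the labels do not say which part of the gene is deleted or whether the WT mice were littermates. Marrow of both groups was cultured with M-CSF (20 ng/ml, 7 days), a growth factor that turns progenitors into macrophages, and afterwards with IFN-γ (20 ng/ml) and LPS (100 ng/ml) for 24 h, which induces the inflammatory M1 state. Each genotype had 3 libraries, and no unstimulated library was analysed here. The genes were chosen by their function with the Cd226-/- against WT read counts of these same libraries known. Their differences between genotypes are therefore given as a description, with no test, and support nothing by themselves.

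In proline synthesis, the mitochondrial enzyme encoded by Aldh18a1 turns glutamate into pyrroline-5-carboxylate, and pyrroline-5-carboxylate reductases such as that of Pycr1 turn this into proline. Glutamine synthetase (Glul) joins ammonia to glutamate, and the cytosolic aspartate aminotransferase (Got1) exchanges amino groups between aspartate and glutamate and is part of the malate-aspartate shuttle. Cystathionine beta-synthase (Cbs) and cystathionine gamma-lyase (Cth) form the transsulfuration route from homocysteine to cysteine. The branched-chain aminotransferases, cytosolic (Bcat1) and mitochondrial (Bcat2), take the amino group off leucine, isoleucine and valine. Macrophages stimulated with IFN-γ and LPS are known for a reworked amino acid metabolism, in which arginine and glutamine use stand out.

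Total counts ranged from 16925955 to 18867799 in Cd226-/- libraries and from 16838527 to 21658061 in WT libraries, so that 1 count was worth 0.0462 to 0.0594 CPM, the count scaled to a fixed library total. Whether each library came from its own mouse or culture is not in the labels, and the spread between libraries, on which every p-value here rests, may be technical. Cd226 itself was near the detection limit, with 11, 10 and 8 counts in Cd226-/- libraries and 5, 17 and 23 counts in WT libraries, and did not check the labels. All 8 macrophage markers examined were abundant in both genotypes: summed, they made up 19212 to 20005 CPM in Cd226-/- and 17932 to 19895 CPM in WT libraries, with Lyz2 alone at 11228 to 12157 CPM in Cd226-/- and 10173 to 11524 CPM in WT. By edgeR 4 of the 8 rose and 3 fell in Cd226-/- under each scaling. Of all genes tested, 16.1% rose and 14.8% fell under the scaling used below. Cd68 rose by 0.39 and Adgre1, Mertk and Fcgr1 by 0.26, 0.30 and 0.19 on the log2 scale, while Cd14, Itgam and Csf1r fell by 0.37, 0.30 and 0.29 (adjusted p from 8.63e-06 to 0.0107). The part of these changes in the results was not tested. Cd226-/- replicate 1 stood apart from replicates 2 and 3 along the second principal component (14.9% of variance). Replicates 2 and 3 of Cd226-/- were the most alike pair within a genotype. The chi-square per degree of freedom between their counts was 2.17. It was 7.61 and 7.755 for the other Cd226-/- pairs and 3.79 to 6.32 for WT pairs. Whether these 2 libraries are independent is not in the labels, and every SD, SE and p-value here counts them as 2. Levels below are CPM scaled by TMM, a factor that makes most genes equal between libraries. Fold changes are those of edgeR fitted across 13215 genes, Cd226-/- over WT. Of the 8 genes 7 passed the filter on low counts, and Cbs did not. Pycr1, Cth and Bcat1 were low in WT and passed through their Cd226-/- counts.

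Both genes of proline synthesis were higher in Cd226-/- macrophages. Aldh18a1 had 13.1, 15.3 and 14.4 CPM in Cd226-/- replicates 1 to 3, against 5.42, 3.80 and 4.89 CPM in WT replicates 1 to 3. The genotypes did not overlap, and the lowest Cd226-/- library lay 2.41-fold above the highest WT library. The fitted difference was 3.02-fold (log2 fold change 1.59 ± 0.14 (SE)). Pycr1 was scarce, with 17, 20 and 11 counts in Cd226-/- libraries and 3, 4 and 4 counts in WT libraries. Scaled, this is 0.937, 1.20 and 0.599 CPM in Cd226-/- and 0.164, 0.234 and 0.181 CPM in WT. Every Cd226-/- library again lay above every WT library, although each WT library was at or just above the 3 counts that a count of 0 allows. Over the summed counts, 48 in Cd226-/- and 11 in WT, the ratio was 4.72 (95% exact interval for counting error, 2.41 to 10.1), and the fitted log2 fold change was 2.20 ± 0.54 (SE). Aldh18a1 lies on chromosome 19 from 40550257 to 40588463 and Pycr1 on chromosome 11 from 120635712 to 120643769, both on the minus strand (GENCODE positions on GRCm38).

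The 150 bases before the start sites of Aldh18a1, Pycr1 and Got1 are shown because these 3 hold a searched motif there. They come from RefSeq sequences of GRCm38.p6 and read 5′ to 3′ on the gene's strand, with the motif in capitals. The search covered 3 motifs on both strands in windows of 250 bases before to 50 bases after a start: the C/EBP-ATF response element TGATGNAAN, the antioxidant response element TGACNNNGC and the E-box CACGTG.
Pycr1 (GRCm38, chr11:120643749-120643898, minus strand): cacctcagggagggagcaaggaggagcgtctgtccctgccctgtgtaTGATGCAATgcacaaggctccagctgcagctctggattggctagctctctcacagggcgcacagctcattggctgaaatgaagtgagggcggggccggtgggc
Got1 (GRCm38, chr19:43524606-43524755, minus strand): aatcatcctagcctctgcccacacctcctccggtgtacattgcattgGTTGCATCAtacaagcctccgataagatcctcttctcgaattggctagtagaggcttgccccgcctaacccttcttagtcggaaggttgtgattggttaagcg
Aldh18a1 (GRCm38, chr19:40588464-40588613, minus strand): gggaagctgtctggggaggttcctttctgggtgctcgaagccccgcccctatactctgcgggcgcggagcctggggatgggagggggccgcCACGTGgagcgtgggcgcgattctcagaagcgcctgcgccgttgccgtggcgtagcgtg
Pycr1 holds the C/EBP-ATF element as TGATGCAAT from position -103 (the base before the start is -1), and Got1 holds TGATGCAAC on the other strand, which appears above as its reverse complement from position -103. The start used for Pycr1 is not the GENCODE gene end given above. Its stretch begins at 120643749, inside the gene that runs to 120643769, so the position would differ if counted from that end. Aldh18a1 has an E-box from position -59, and Cbs has one from position -229. The 9 windows available, for all of the 8 genes but Cth, held no antioxidant response element, and those of Glul, Bcat1 and Bcat2 held none of the motifs. Among 32851 promoter windows of the same length, 3.95% held the C/EBP-ATF element, 12.4% the antioxidant response element and 7.15% the E-box. A match of letters is a description and not evidence of binding.

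Glul was the only one of the 7 fitted genes that was lower in Cd226-/-, and it had the highest level per transcript length. It had 148, 144 and 154 CPM in Cd226-/- libraries, against 221, 221 and 240 CPM in WT libraries. The spread was small on both sides (coefficient of variation 3.40% in Cd226-/- and 4.69% in WT), and the lowest WT library lay 1.43-fold above the highest Cd226-/- library. The fitted log2 fold change was -0.61 ± 0.051 (SE), or 1.53-fold lower in Cd226-/-. Glul lies on chromosome 1 from 153899944 to 153909723. Of its 50-base stretches 15.0% also occur in transcripts of other genes, among them the pseudogene Glns-ps1, so a part of its counts is uncertain. Got1 had the smallest fitted difference of the 7. It had 77.3, 66.6 and 64.4 CPM in Cd226-/- libraries and 61.5, 57.7 and 57.2 CPM in WT libraries. The genotypes did not overlap, but Cd226-/- replicate 3 was only 1.05-fold above WT replicate 1. The fitted log2 fold change of Got1 was 0.24 ± 0.068 (SE), and it was 0.16 without Cd226-/- replicate 1, the library that was highest. Measured against each other per transcript length, Glul exceeded Got1 by 1.41-fold, 1.60-fold and 1.77-fold in Cd226-/- libraries and by 2.65-fold, 2.83-fold and 3.09-fold in WT libraries.

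The transsulfuration pair divided into a scarce gene, Cth, and one at the edge of detection, Cbs. Cth (chromosome 3, 157894248 to 157925077) had 34, 34 and 47 counts in Cd226-/- libraries and 17, 8 and 6 counts in WT libraries. In CPM these are 1.87, 2.04 and 2.56 in Cd226-/- and 0.932, 0.467 and 0.271 in WT, without overlap. The ratio of summed counts was 4.01 (95% exact interval for counting error, 2.68 to 6.17), and the fitted log2 fold change was 1.97 ± 0.41 (SE). WT libraries varied by 60.9% of their mean, most of it from WT replicate 1, and without that library the log2 fold change was 2.56. Cbs (chromosome 17, 31608894 to 31637238) had 0, 2 and 4 counts in Cd226-/- libraries and 0 in all WT libraries. Summed, this is 0.111 CPM in Cd226-/- (95% exact Poisson interval 0.0406 to 0.241) and 0 of 56460233 counts in WT. The same interval for WT runs from 0 to 0.0653 CPM, and the limit of 3 counts is 0.0531 CPM. Cbs did not pass the filter, so its difference was not tested and no fold is given. The nearest coding gene on each side was expressed. Pknox1 averaged 20.7 CPM in Cd226-/- and 20.8 CPM in WT, and U2af1 averaged 18.4 CPM in Cd226-/- and 20.2 CPM in WT. Levels of the neighbours examined ranged from 0 for Pde9a to 37.8 CPM in Cd226-/- and 28.1 CPM in WT for Ndufv3.

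Hepatocytes carry much Cbs and Cth, and liver transcripts were found in 2 of the Cd226-/- libraries. A list of 12 hepatocyte genes holds Trf, which these macrophages express at 3731 to 4739 counts in every library. The other 11, Alb among them, summed to 4, 415 and 485 counts in Cd226-/- replicates 1 to 3 and to 0, 1 and 4 counts in WT replicates 1 to 3. Alb had 0, 266 and 279 counts in Cd226-/- and 0 in each WT library. The liver-type genes of the methionine cycle followed the same libraries: Mat1a, the liver methionine adenosyltransferase, had 0, 22 and 33 counts in Cd226-/- and 0 in WT, and Bhmt, which remethylates homocysteine in liver, had 0, 10 and 10 counts in Cd226-/- and 0 in WT. Both were singled out once their values had been seen. All Cbs counts fell in the 2 libraries that held liver transcripts, and the part of those transcripts in the Cbs counts was not tested. For Cth, Cd226-/- replicate 1, with 4 counts of the 11 liver genes, had 1.87 CPM, above the highest WT library at 0.932 CPM. The part of liver transcripts in the Cth counts was not tested.

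**Figure D1:**
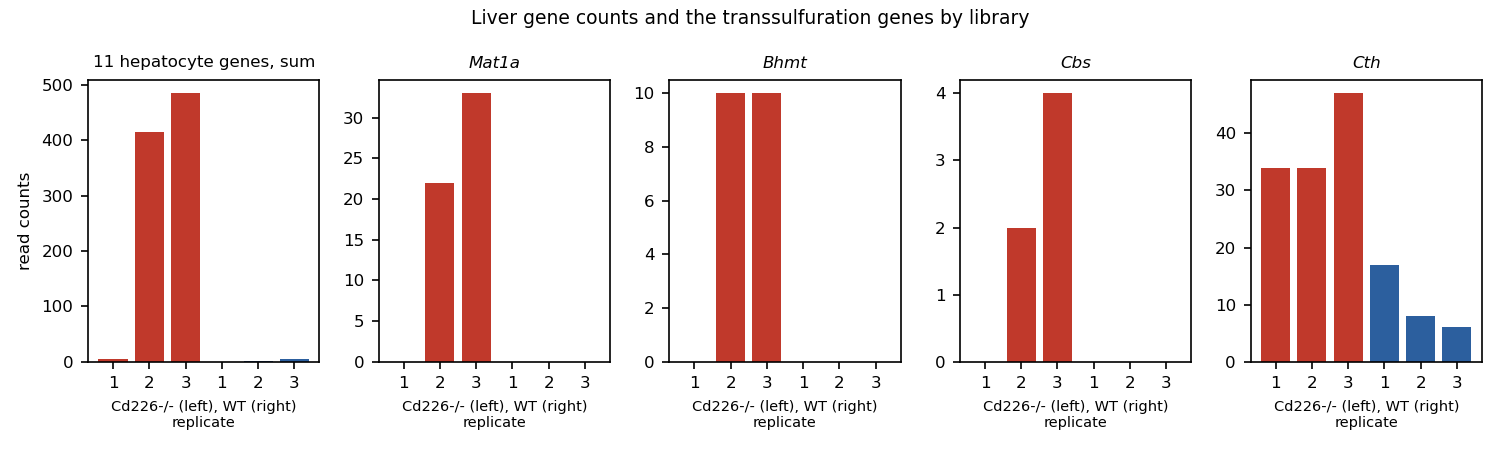
Read counts in Cd226-/- replicates 1 to 3 (red, left) and WT replicates 1 to 3 (blue, right) for the sum of 11 hepatocyte genes and for Mat1a, Bhmt, Cbs and Cth, each panel on its own linear axis from 0. The liver genes and Cbs are seen in Cd226-/- replicates 2 and 3, whereas Cth has 34, 34 and 47 counts in the Cd226-/- libraries and 17, 8 and 6 in the WT libraries.

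Both branched-chain aminotransferases were higher in Cd226-/-. The mitochondrial Bcat2 (chromosome 7, 45570153 to 45589711) had 49.3, 46.0 and 43.7 CPM in Cd226-/- libraries, against 31.6, 29.5 and 26.8 CPM in WT libraries. The genotypes did not overlap and were 1.38-fold apart at their nearest libraries, with a fitted difference of 1.58-fold (log2 fold change 0.66 ± 0.078 (SE)). The cytosolic Bcat1 (chromosome 6, 144993835 to 145076184) had 24, 26 and 30 counts in Cd226-/- and 2, 9 and 12 counts in WT. This is 1.32, 1.56 and 1.63 CPM in Cd226-/- and 0.110, 0.526 and 0.543 CPM in WT. Each Cd226-/- library lay above each WT library, and WT replicate 1 was the low one, below the 3 counts that a count of 0 allows. The ratio of summed counts was 3.76 (95% exact interval for counting error, 2.34 to 6.26), and the log2 fold change of Bcat1 was 1.90 ± 0.46 (SE), or 1.48 without WT replicate 1. Per transcript length Bcat2 exceeded Bcat1 by 101-fold to 140-fold in Cd226-/- libraries and by 186-fold to 1086-fold in WT libraries, where the upper value rests on the 2 counts of Bcat1 in WT replicate 1. The exons of Bcat1, Bcat2 and Glul overlap other annotated genes, all of which had 0 counts in every library.

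**Figure D2:**
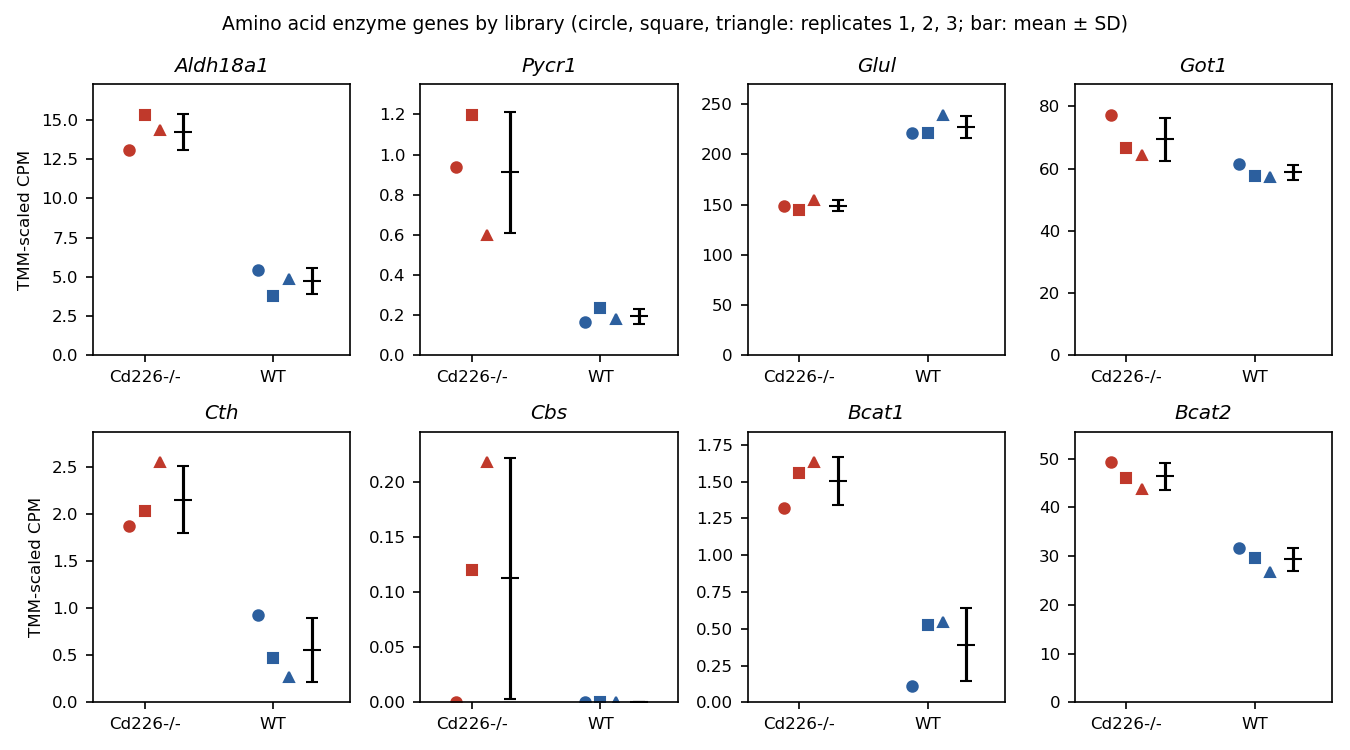
TMM-scaled CPM of each of the 8 genes in the 3 Cd226-/- libraries (red, left) and the 3 WT libraries (blue, right), with the mean and SD beside the points and a linear axis from 0 in each panel. Glul is lower in Cd226-/-, 6 genes are higher without overlap, as are 22.1% of all genes tested, and Cbs shows 0, 0.120 and 0.218 CPM in Cd226-/- and 0 in WT.

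Of all 13215 genes tested, 30.9% had an adjusted p below 0.05 by edgeR (quasi-likelihood), 16.1% higher and 14.8% lower in Cd226-/-, and 44.3% did not overlap between genotypes. Of the 7 fitted genes described here, 6 were higher and 1 was lower without overlap. The genes were picked with this contrast known, and Pycr1, Cth and Bcat1 entered the fit through their Cd226-/- counts, so nothing is read from this count or from the size of their fold changes. The split over all genes depends on the scaling: 2130 were higher and 1956 lower with TMM, and 1773 were higher and 2764 lower when scaled by library size alone. The direction of each of the 7 genes was the same under both scalings. In CPM, Pycr1 averaged 0.912 in Cd226-/- and 0.193 in WT, and Cth 2.16 in Cd226-/- and 0.557 in WT. Bcat1 averaged 1.51 CPM in Cd226-/- and 0.393 CPM in WT. The fitted difference of Got1 was 1.18-fold.

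**Figure D3:**
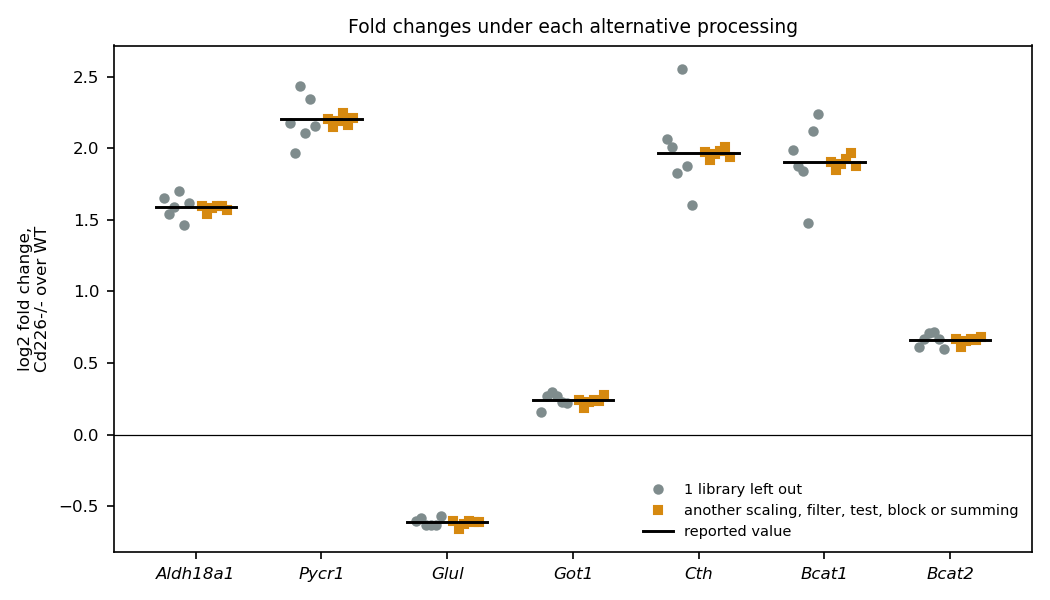
Log2 fold change of Cd226-/- over WT for the 7 fitted genes as reported (black line), with each of the 6 libraries left out in turn (grey circles) and under the other alternatives (orange squares). Pycr1, Cth and Bcat1 move most, between 1.97 and 2.44, 1.61 and 2.56, and 1.48 and 2.24, and no point crosses 0.

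By level per transcript length the order of the genes was the same in the 2 genotypes. In Cd226-/- libraries Glul led with 53.4 ± 1.82 CPM per kb (SD, n = 3), followed by Got1 with 33.8 ± 3.35, Bcat2 with 22.3 ± 1.36, Aldh18a1 with 4.04 ± 0.325, Cth with 1.19 ± 0.197, Pycr1 with 0.313 ± 0.103, Bcat1 with 0.192 ± 0.0207 and Cbs with 0.0181 ± 0.0175 CPM per kb. In WT libraries Glul had 81.4 ± 3.82 CPM per kb (SD, n = 3), Got1 28.6 ± 1.14, Bcat2 14.1 ± 1.15, Aldh18a1 1.33 ± 0.235, Cth 0.307 ± 0.187, Pycr1 0.0662 ± 0.0124 and Bcat1 0.0501 ± 0.0313 CPM per kb, with Cbs at 0. Neighbours in this order did not overlap between libraries, except Pycr1 and Bcat1, whose ranges overlapped in both genotypes. The step from the third gene to the fourth was among the widest, 5.51-fold from Bcat2 to Aldh18a1 in Cd226-/- and 10.6-fold in WT.

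**Figure D4:**
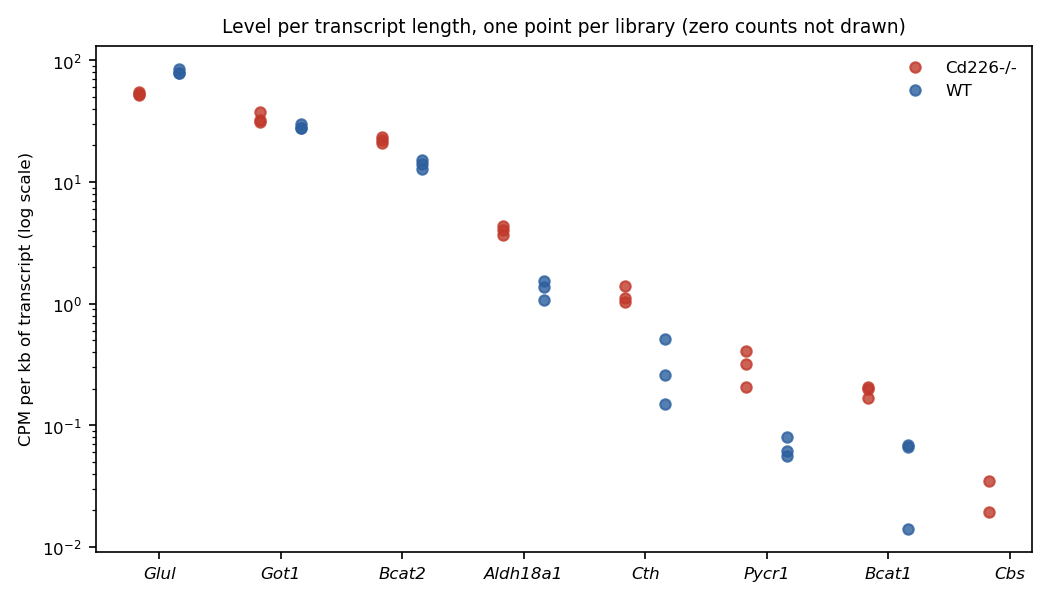
Level of each gene as CPM per kb of its longest coding transcript (log axis), with 1 point per library, Cd226-/- (red) left of WT (blue), and libraries with 0 counts not drawn. The order from Glul to Cbs is shared, and only Glul has its Cd226-/- points below its WT points.

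The other enzymes of the same pathways were taken from 5 lists with 73 genes, of which 68 were tested. Among them 10 rose and 16 fell in Cd226-/-, with a median log2 fold change of -0.061, beside -0.0045 over all genes tested. These are 14.7% higher and 23.5% lower, beside 16.1% and 14.8% of all genes tested. Scaled by library size alone, 7 rose and 22 fell (10.3% and 32.4%, beside 13.4% and 20.9% of all genes). The lists were written with earlier results of these data known, among them the value of Asns. Of 5 tested enzymes of proline and ornithine metabolism, 1 rose and 1 fell (median log2 fold change -0.093), or 1 and 2 when scaled by library size. Oat, the ornithine aminotransferase that also yields pyrroline-5-carboxylate, rose 1.55-fold, with 121, 100 and 102 CPM in Cd226-/- and 67.7, 76.2 and 65.2 CPM in WT (adjusted p = 1.40e-05). Pycr3 did not pass (log2 fold change 0.079, 95% interval -0.21 to 0.37, adjusted p = 0.728), and Prodh, the first enzyme of proline breakdown, was too low to test, with 6, 2 and 4 counts in Cd226-/- and 0, 2 and 1 counts in WT.

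Of 11 tested glutamate enzymes and malate-aspartate shuttle genes, 2 rose and 1 fell (median log2 fold change -0.044). These are 18.2% and 9.09% of the list, beside 16.1% and 14.8% of all genes. Glud1, glutamate dehydrogenase, missed the threshold (log2 fold change -0.044, 95% interval -0.14 to 0.055). In the shuttle, the cytosolic malate dehydrogenase Mdh1 rose 1.18-fold (adjusted p = 0.00128) and the mitochondrial carrier Slc25a13 rose 1.51-fold (adjusted p = 0.00371). Got2, the mitochondrial partner of Got1, fell by 0.16 on the log2 scale at adjusted p = 0.0436, and its adjusted p ranged up to 0.200 over the alternatives, above the threshold without replicate 1 or 3 of either genotype. Among 11 tested enzymes that use the amide of glutamine, 2 rose and 3 fell (median log2 fold change -0.047). These are 18.2% and 27.3% of that list. Asns, asparagine synthetase, rose 4.30-fold (adjusted p = 1.26e-10). It had 21.5, 29.2 and 28.1 CPM in Cd226-/- and 6.30, 6.72 and 5.38 CPM in WT. The hexosamine pathway enzymes Gfpt1 and Gfpt2 moved apart: Gfpt1 rose 1.54-fold (adjusted p = 1.34e-06), and Gfpt2 fell by 0.91 on the log2 scale (adjusted p = 6.12e-05).

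Around transsulfuration, 17 enzymes of the methionine cycle and of cysteine breakdown were tested. Of these 3 rose and 5 fell (median log2 fold change -0.18), or 2 and 6 when scaled by library size. With TMM the shares are 17.6% and 29.4% of the list, beside 16.1% and 14.8% of all genes. Mpst, which makes sulfide from a cysteine product, rose 1.37-fold (adjusted p = 0.00132). Cdo1, the cysteine dioxygenase, rose 2.70-fold from low levels, with 1.87, 2.40 and 3.92 CPM in Cd226-/- and 1.37, 0.701 and 0.950 CPM in WT (adjusted p = 0.00330). It is also a liver gene, it was highest in a library with liver transcripts, whose part in it was not tested, and it missed the threshold without Cd226-/- replicate 3 (adjusted p = 0.0525). Sqor, which oxidizes sulfide, fell by 0.20 on the log2 scale (adjusted p = 0.00739), or at adjusted p = 0.0592 without WT replicate 3. Mat2a, the methionine adenosyltransferase of most tissues, did not pass (log2 fold change 1.08 ± 0.45 (SE), adjusted p = 0.105), with 1.98, 4.80 and 6.65 CPM in Cd226-/- and 1.53, 1.69 and 3.03 CPM in WT. It passed without Cd226-/- replicate 1 (adjusted p = 1.38e-04) or WT replicate 3 (adjusted p = 0.0490), with no filter (2.27e-04) and by DESeq2 (0.0146). With the replicate number as a block in edgeR, Mat2a also passed (0.00171). Ahcy did not pass (log2 fold change -0.20, 95% interval -0.61 to 0.22). Without Cd226-/- replicate 1 the list had 6 higher and 3 lower genes, and leaving out any other library gave 1 or 2 lower genes.

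Downstream of the aminotransferases, 24 genes of branched-chain amino acid catabolism were tested, of which 2 rose and 6 fell (median log2 fold change -0.047). These are 8.33% and 25% of the list, beside 16.1% and 14.8% of all genes, and 0 rose and 9 fell when scaled by library size. Hibch, of valine breakdown, fell by 0.60 on the log2 scale (adjusted p = 3.76e-04). It had 9.32, 10.9 and 11.5 CPM in Cd226-/- and 17.5, 15.1 and 15.6 CPM in WT. Slc25a44, the mitochondrial carrier of branched-chain amino acids, fell by 0.28 (adjusted p = 0.00139), and Aldh6a1, also of valine breakdown, fell by 0.46 (adjusted p = 0.00414). Of the branched-chain keto acid dehydrogenase, which follows Bcat1 and Bcat2, the subunit gene Bckdha fell by 0.34 on the log2 scale (adjusted p = 0.00626), with 19.8, 19.9 and 22.4 CPM in Cd226-/- and 25.5, 24.5 and 28.5 CPM in WT. Bckdhb did not pass (log2 fold change 0.41, 95% interval 0.056 to 0.77, adjusted p = 0.0969), but passed without Cd226-/- replicate 1 (adjusted p = 0.00123) and with no filter (0.0411), and Dbt did not pass either (log2 fold change -0.028, 95% interval -0.23 to 0.18). Bckdk, the kinase that switches the complex off, rose 1.16-fold at adjusted p = 0.0498, with values between 0.0468 and 0.158 under the alternatives, above the threshold with any 1 library left out.

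**Figure D5:**
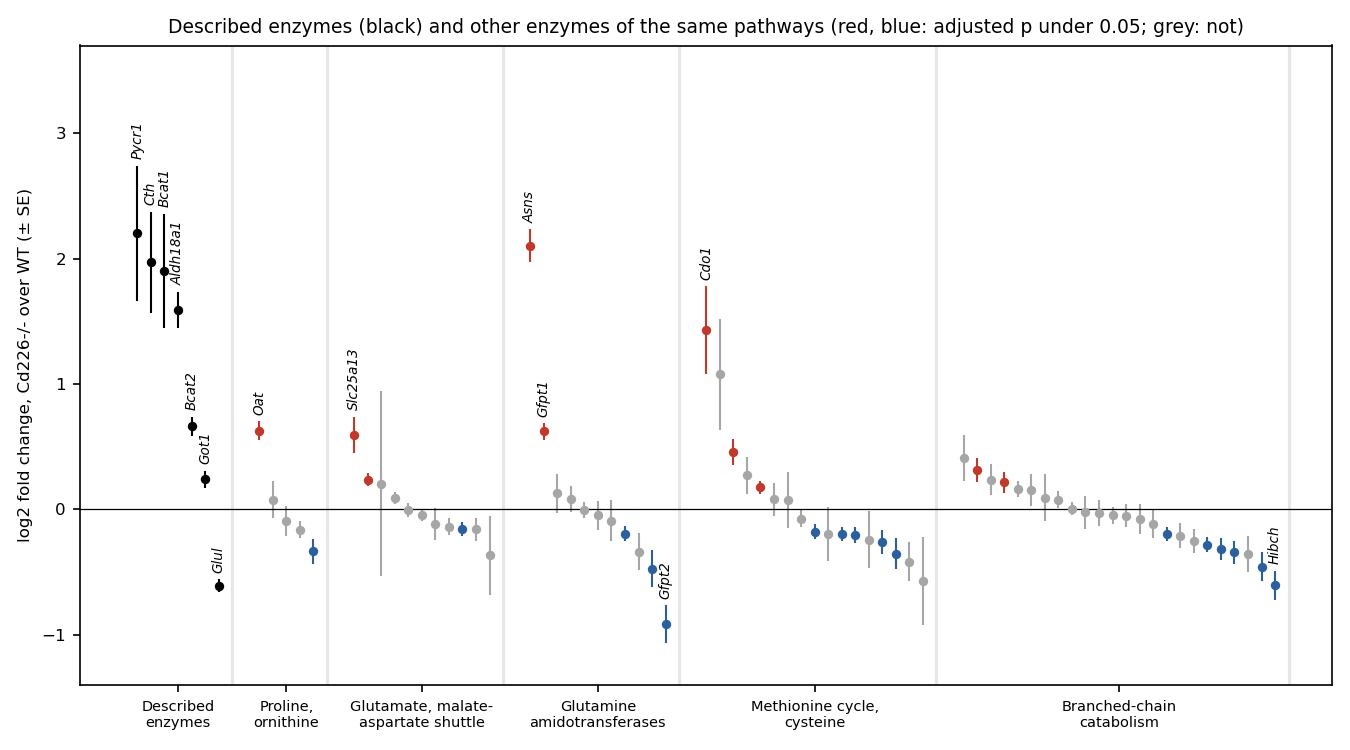
Log2 fold change of Cd226-/- over WT with its SE, for the 7 fitted enzyme genes described here (black) and for the other tested genes of 5 pathway lists (red and blue where the adjusted p is under 0.05, grey where it is not). Points above 0 are higher in Cd226-/-; Asns at 2.10 and Cdo1 at 1.43 are the highest called points outside the black group, and Gfpt2 at -0.91 is the lowest.

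The gene whose log2 CPM followed each of the 7 most closely over the 6 libraries was sought in a set of 8968 genes averaging 5 CPM or more. These were Xpo1 for Aldh18a1 (Pearson r = 0.999), Isca1 for Pycr1 (0.998), Tmbim1 for Glul (0.998), Ppme1 for Got1 (0.996), Enpp2 for Cth (0.996), Ndufs8 for Bcat1 (0.997) and Anxa6 for Bcat2 (0.998). The 6 points share 2 genotypes and their library depths. Of the 8968 genes, 107 for Got1 to 459 for Glul exceeded r = 0.95, with 439 for Aldh18a1. The part of the step between genotypes in these correlations was not tested. Pearson r compares shape and not size, and the sizes often differed. Xpo1 had a log2 fold change of 0.19 and Anxa6 one of 0.20, beside 1.59 for Aldh18a1 and 0.66 for Bcat2. Isca1 had 0.21, Enpp2 0.56 and Ndufs8 0.38, beside 2.20 for Pycr1, 1.97 for Cth and 1.90 for Bcat1. Sizes were nearer for Ppme1 (0.27, beside 0.24 for Got1) and Tmbim1 (-0.41, beside -0.61 for Glul).

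In bulk RNA, a change in the mix of cells and a change in RNA per cell cannot be told apart, and markers of other cells moved with genotype. Of 8 B cell markers 7 were tested and all 7 rose, with sums of 35.6 to 47.6 CPM in Cd226-/- and 14.8 to 19.6 CPM in WT and with Ighm at 0 in every library. Of 8 fibroblast or stromal markers 7 were tested and 5 rose, with sums of 771 to 803 CPM in Cd226-/- and 500 to 580 CPM in WT. Dcn and Postn did not pass and had negative log2 fold changes (-0.092 and -0.40), Postn without overlap. Of 8 dendritic cell markers 5 were tested and 2 rose, Ccr7 and Batf3. The 8 summed to 69.3 to 80.3 CPM in Cd226-/- and 43.3 to 59.9 CPM in WT. Most of this was Ccr7, at 59.4 to 69.0 CPM in Cd226-/- and 36.1 to 50.6 CPM in WT. Flt3, Zbtb46 and Clec9a did not pass (log2 fold change 0.71, 0.024 and -0.32). The rises were 100% of tested B cell, 71.4% of stromal and 40% of dendritic cell markers, beside 16.1% of all genes tested. Of 8 T cell markers 7 were tested and 0 passed (1 at an unadjusted p under 0.05 in edgeR, and 0 by DESeq2), with sums of 10.1 to 14.3 CPM in Cd226-/- and 9.37 to 10.8 CPM in WT and with Trac at 0 in every library. Neutrophil markers summed to 57.8 to 64.7 CPM in Cd226-/- and 49.3 to 62.7 CPM in WT, nearly all of it S100a8. The part of these cells in the low genes Pycr1, Cth and Bcat1, or in the others, was not tested.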

How the data were processed

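RNA was extracted with Trizol and sequenced from 6 macrophage libraries, per the labels' protocols. The authors deposited 1 table of raw read counts per gene symbol. HISAT2 and GRCm38 are named as aligner and genome build per the submitters' processing notes; its version, the counter, the annotation and the use of strand were not given in the sources used here, so reads of overlapping genes on opposite strands cannot be told apart. Columns were assigned by name to sample titles, and no row lacked a gene name.

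Counts were filtered with filterByExpr, scaled by TMM and tested with edgeR 4.0.16 (R 4.3.3; robust quasi-likelihood F-test, two-sided, genotype alone in the model), with Benjamini-Hochberg adjustment over 13215 genes. On simulated data the steps recovered 84%, 96%, 100% and 100% of genes changed 1.5-fold, 2-fold, 3-fold and 4-fold (50 genes each). These shares are not split by level, so none is given for genes as low as Pycr1, Cth and Bcat1. The SE of a log2 fold change is its size over the root of F; 95% intervals of log2 fold changes are 1.96 SE on each side. Per-length levels divide CPM by the longest coding transcript (GENCODE M21, GRCm38). Alternatives included DESeq2 (1.42.0) and each library left out.

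The members, the 5 pathway lists and the marker lists were chosen with earlier results of these data known. Named were the 8 genes, Cd226, 15 preset partners, up to 3 called genes per list by p, and for each gene the closest by Pearson r of log2(CPM + 0.5). Some genes that this rule names are not reported here. Intervals on counts and the limit of 3 counts for a count of 0 cover counting error only. Same-numbered libraries were not treated as pairs.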

Additional observations from a re-analysis of the deposited data

How the results depend on the processing

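The differences of the 7 fitted genes carry no test. Their direction was the same under 12 alternatives, which is no sign of stability, since the genes were chosen with that direction known. With 1 library left out in turn, the log2 fold change ranged from 1.97 to 2.44 for Pycr1, from 1.61 to 2.56 for Cth and from 1.48 to 2.24 for Bcat1, and the WT counts of these 3 genes were 2 to 17 per library. The number of genes called over the whole table ranged from 3263 to 4537. Small list counts moved. Leaving out 1 library gave 0 to 2 lower proline and ornithine genes, 0 or 1 lower glutamate and shuttle genes, 1 to 3 lower glutamine amidotransferases, 2 to 6 higher and 1 to 3 lower methionine and cysteine genes, and 0 to 2 higher branched-chain genes. Scaling by library size gave 2 lower proline genes and 0 higher and 9 lower branched-chain genes. DESeq2's Wald test gave 0 lower glutamate, 2 lower methionine and 1 higher branched-chain genes. With Cd226-/- replicates 2 and 3, the most alike pair, summed, 3401 genes were called, beside 4086 in the main fit. That setting gave 0 lower glutamate, 1 lower methionine and 0 higher branched-chain genes. With no filter 6 methionine genes were higher. That setting takes in Mat1a and Bhmt, the liver-type genes that the filter removed, and their part in the 6 was not tested. Where a list count was 0, 0 to 3 of its genes had an unadjusted p under 0.05 in the same fit. The cause of these shifts was not tested. Deviations of same-numbered libraries correlated by 0.012, -0.013 and 0.012 for replicates 1 to 3. The labels do not say whether same-numbered libraries share a batch or culture day, and this was not tested. With the replicate number as a block 4137 genes were called, among them 0 lower glutamate genes and 1 higher branched-chain gene, and Mat2a passed (adjusted p = 0.00171). The order by level was the same with summed exon lengths, chosen after seeing the data, and the log2 fold changes with no prior count, also chosen then, were 2.24 for Pycr1, 1.95 for Cth and 1.94 for Bcat1.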
